A study of Mus musculus with 9 samples.

Results

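Chromosomes 2 and 4 of the mouse were examined for contacts with Dbp, a gene on chromosome 7, in mouse embryonic fibroblasts. All array probes on either chromosome were taken: 27834 on chromosome 2 and 22468 on chromosome 4, together 50302 of 384942 probes. Probes were taken by chromosome and not by their values. The chromosomes, and the rules used on them, were chosen with earlier results of these data known. The 2 chromosomes are described apart. In windows of 1 Mb with at least 20 probes they gave 176 windows on chromosome 2 and 150 on chromosome 4, with medians of 159.5 and 152 probes.

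The study asked how the surroundings of Dbp differ with circadian time and without Bmal1. Cells were given dexamethasone for 2 h, which sets their clocks to a common phase, and harvested at a labelled circadian time (CT) in hours. Wild-type (WT) line 1 was measured at CT22, CT26, CT30, CT34 and CT46, a Bmal1-/- line at CT22 and CT34, and WT line 2 at CT22 and CT34, with 1 array for each. All lines came from C57BL/6 embryos at day 13, without head and liver. Line 1 and the Bmal1-/- line derive from siblings of 1 mating scheme, and line 2 from another cross. The labels do not agree among themselves on the serum used. Bmal1-/- is a single line, so genotype and line cannot be told apart there. WT CT22 and WT CT34 have n = 2, 1 array per line, and all other groups n = 1. Means ± SD over line 1 therefore run over 5 circadian times, and tests between groups measure the spread between lines or times.

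Dbp encodes a transcription factor of the PAR bZIP family and is a direct output of the circadian clock. BMAL1 and its partner CLOCK bind its regulatory sequences and switch it on once a day, and cells without Bmal1 lack a working clock. In chromosome conformation capture-on-chip (4C), DNA that lies close together in the nucleus is crosslinked, cut and ligated, and whatever was joined to the viewpoint, here Dbp, is amplified and hybridized to an array. Most contacts of a gene lie on its own chromosome. Contacts with other chromosomes are much rarer and are usually read as clusters of probes with raised signal, and in mammalian nuclei they tend to join regions of similar gene density and activity.

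The value of a probe is the log2 ratio of 4C DNA over genomic DNA of the same cells. High probes are those above the 95th percentile of their own array, with chromosome 7 left out of the percentile, so about 5% of all probes off that chromosome are high by construction. This threshold ranged from 1.67 to 2.11 for line 1 arrays. It was 2.21 and 2.8 for Bmal1-/-, and 0.51 and 0.53 for line 2, whose ratios spanned a narrower range. On chromosome 7 itself line 1 had 34.7% to 37.2% high probes, against 32.2% and 33.5% for Bmal1-/- and 18.2% and 20.8% for line 2. Line 2 thus stood apart from the other arrays, and results are given with and without it. All arrays carry the same probes, and the part of probe-specific hybridization in recurring signal was not tested.

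Both chromosomes held fewer high probes than the rest of the genome in line 1 and in Bmal1-/-, and not in line 2. On chromosome 2 the share of high probes in line 1 was 4.26% at CT22, 4.23% at CT26, 4.17% at CT30, 4.34% at CT34 and 4.58% at CT46. It was 4.76% and 4.45% in Bmal1-/- at CT22 and CT34, and 4.84% and 4.96% in line 2. On chromosome 4 the line 1 shares were 3.92%, 3.98%, 4.14%, 3.77% and 4.10% in the same order of times. Bmal1-/- had 3.98% and 4.12% there, within the range of line 1, and line 2 had 5.02% and 5.12%, above every other array. Exact 95% intervals for single arrays, which cover counting error only, were narrow, for example 4.03% to 4.50% for chromosome 2 and 3.67% to 4.18% for chromosome 4 in line 1 at CT22. Among the 19 chromosomes ranked from the lowest share, chromosome 2 was number 6 and chromosome 4 number 5 in line 1, against numbers 11 and 14 in line 2.

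The difference from all other chromosomes but 7 was tested within arrays by an exact two-sided sign-flip test over the 9 arrays, adjusted by Benjamini-Hochberg over the 5 such differences computed. Chromosome 2 had 4.51% high probes against 4.98% elsewhere, a difference of -0.47 percentage points (SD 0.39, lower in 7 of 9 arrays, adjusted p = 0.026). Chromosome 4 had 4.24% against 4.99%, a difference of -0.75 (SD 0.60, lower in 7 of 9 arrays, adjusted p = 0.026). The arrays that went the other way were both line 2 arrays, on both chromosomes. In line 1 alone the differences were -0.73 ± 0.17 and -1.07 ± 0.16 (SD, n = 5), and in line 2 they were 0.11 ± 0.089 and 0.29 ± 0.069 (SD, n = 2). Chromosome 4 was lower than chromosome 2 by 0.27 percentage points (SD 0.33, 7 of 9 arrays, adjusted p = 0.044), again with line 2 the other way. These p-values treat the arrays as independent, although arrays of 1 line share its cells. With 1 mean for each of the 3 lines the exact test cannot go below p = 0.25. None of the 3 calls held for the mean log2 ratio, by which the differences were -0.0066, -0.0049 and 0.0015, with adjusted p from 0.137 to 0.676 (exact sign-flip test).

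**Figure D1:**
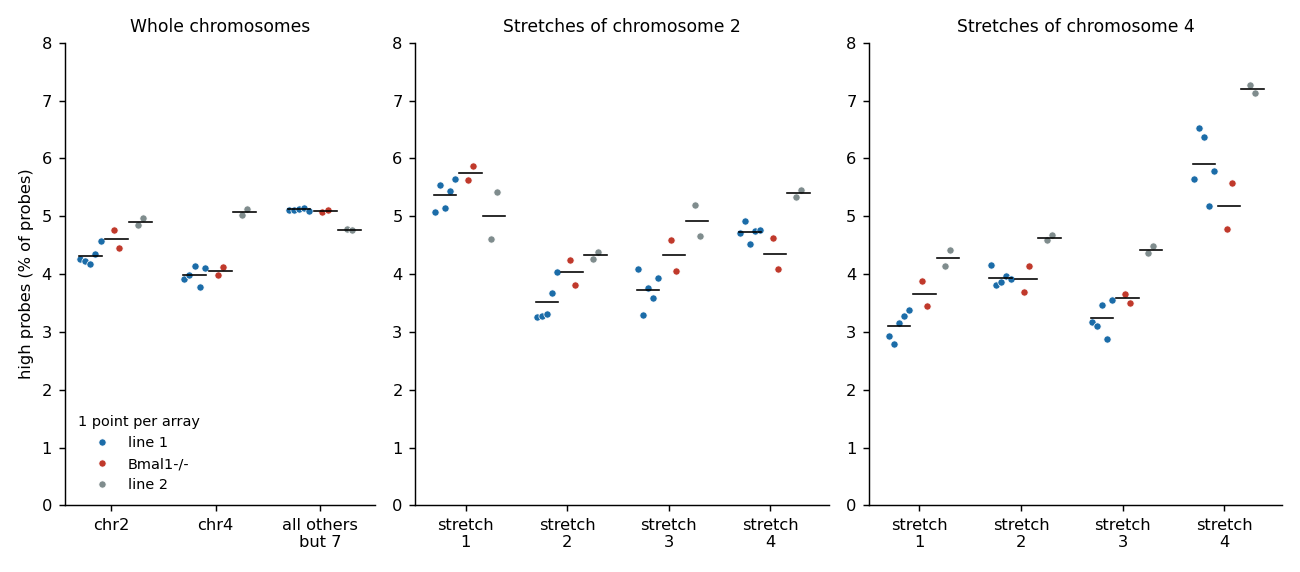
Share of high probes (percent of probes, y axis) on the whole chromosomes and in 4 equal stretches of each (44.7 Mb on chromosome 2, 38.0 Mb on chromosome 4), 1 point per array and a bar for the mean of each line. Line 1 and Bmal1-/- lie below the rest of the genome on both chromosomes, and the last, distal stretch of chromosome 4 is the highest of that chromosome in each of the 9 arrays.

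The low mean hid local blocks. For each array a one-sided binomial test asked whether a window held more high probes than the array's share outside chromosome 7 gives, adjusted per array over the 2399 windows off chromosome 7. Such a call describes 1 array. In line 1 this called 9, 16, 15, 15 and 17 of the 176 windows of chromosome 2 at CT22, CT26, CT30, CT34 and CT46. The background over all windows off chromosome 7 was 10.5%, 12.4%, 11.6%, 9.92% and 11.2% called, and chromosome 2 stayed at 5.11% to 9.66%, below it at each time. On chromosome 4 it called 5, 8, 8, 5 and 9 of 150 windows, or 3.33% to 6.00%. Bmal1-/- had 9 and 12 calls on chromosome 2 and 2 and 8 on chromosome 4, against a background of 7.34% and 9.34%. Line 2 had 0 and 3 on chromosome 2 and 0 and 2 on chromosome 4, against 0.542% and 1.67%.

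A contact window was defined as one called in at least 3 of the 5 line 1 arrays. Chromosome 2 held 12 such windows in 8 blocks and chromosome 4 held 4 in 4 blocks. That is 6.82% and 2.67% of their windows, below the background of 10.1% of windows off chromosome 7. Of these, 6 and 2 were called in all 5 line 1 arrays, against a background of 5.09%. Both chromosomes mostly held few high probes: 124 of 176 windows on chromosome 2 and 106 of 150 on chromosome 4 had a line 1 mean below 5%, and the median window had 3.32% and 2.89%. The 12 contact windows of chromosome 2 covered 6.39% of its probes and 19.6% of its high probes in line 1. The 4 contact windows of chromosome 4 covered 2.70% of its probes and 9.15% of its high probes. Line 1 values in contact windows are descriptions, since line 1 chose the windows.

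**Figure D2:**
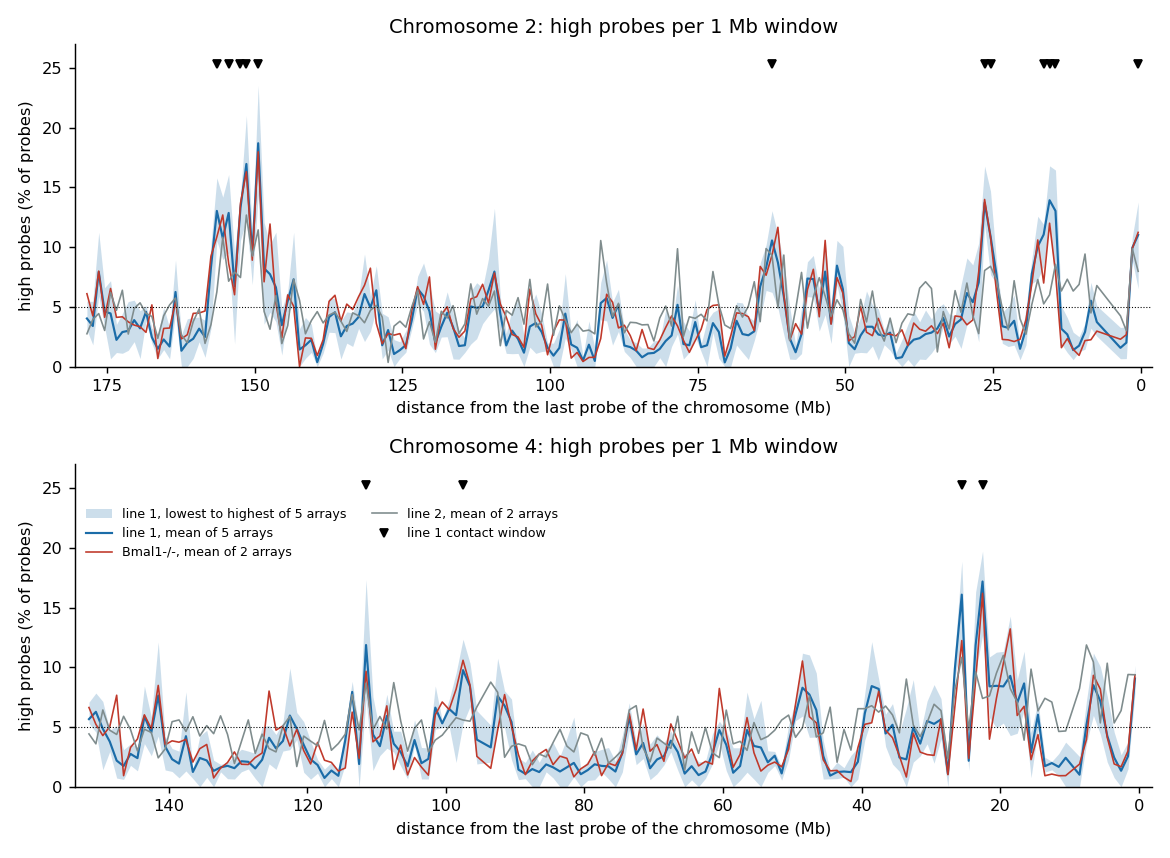
Share of high probes in each 1 Mb window (percent, y axis) along chromosomes 2 and 4, drawn by distance from the last probe of the chromosome (x axis, Mb), as the mean of each line with the range of the 5 line 1 arrays shaded. Triangles mark the 16 line 1 contact windows, and the dotted line is at 5%. Most windows lie below 5%, with narrow peaks 149 to 156 Mb from the end of chromosome 2 and 22.5 and 25.5 Mb from the end of chromosome 4.

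On chromosome 2, 5 of the 12 contact windows lay within 8 Mb, between 25000001 and 33000000, and 6 lay beyond 155000000. The first probe of the chromosome, on the side of the centromere, starts at 3009252. Positions are 1-based in the coordinates of the files. Their genome build is not given among the sources used here, so no gene is named by position. The block from 32000001 to 33000000 (153 probes) had the highest share on the chromosome. In line 1 its share was 23.5% at CT22, 23.5% at CT26, 16.3% at CT30, 15.7% at CT34 and 14.4% at CT46. Bmal1-/- had 17.0% and 19.0% at CT22 and CT34, inside the range of line 1, and line 2 had 9.80% and 13.1%, below it. The lower values of line 1 were at the 3 later times, each of them 1 array. CT22 and CT46 lie 24 h apart, at the same phase of a 24 h cycle, yet they had 23.5% and 14.4%.

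The block from 29000001 to 31000000 (299 probes) was next and varied less. It had 14.7%, 14.7%, 17.4%, 13.4% and 14.7% in line 1, 15.4% and 14.4% in Bmal1-/-, while line 2 had 8.03% and 11.7%. Here too the Bmal1-/- arrays lay inside the range of line 1 and the line 2 arrays below it. The neighbouring blocks from 25000001 to 26000000 and from 27000001 to 28000000 had line 1 means of 13.0% ± 2.20 and 12.9% ± 2.48 (SD, n = 5). In the block from 27000001 both Bmal1-/- arrays, with 8.33% and 8.93%, lay below the lowest line 1 array, with 9.52%. The windows between these blocks were raised as well. That from 26000001 had 10.7% and that from 31000001 had 9.32% as line 1 means, so the stretch as a whole was high and broken only by the call threshold and the dip to 6.71% from 28000001.

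The remaining blocks of chromosome 2 were lower. The block from 155000001 to 157000000 (286 probes) had a line 1 mean of 12.3% ± 2.13 and a Bmal1-/- mean of 12.4% ± 1.73 (SD, n = 2). The block from 165000001 to 168000000 spanned 3 windows and had 12.6% ± 1.47 in line 1. Its 2 Bmal1-/- values, 8.57% and 9.05%, lay below the lowest line 1 value of 10.2%. The block from 119000001 to 120000000 had 10.6% ± 2.60 in line 1, and the last, partly filled window from 181000001 had 11% ± 3.09. That terminal window was called in 3 of 5 line 1 arrays only, and 4 further windows, from 33000001, 34000001, 120000001 and 164000001, missed the definition with calls in 2 arrays and line 1 means of 7.73% to 10.1%.

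Chromosome 4 had its 2 highest blocks close together in its distal part. The block from 132000001 to 133000000 (142 probes) had 17.6%, 17.6%, 18.3%, 19.7% and 12.7% high probes in line 1 at CT22, CT26, CT30, CT34 and CT46. Bmal1-/- had 16.2% in both arrays, and line 2 had 6.34% and 8.45%, below every array of the other lines. The block from 129000001 to 130000000 (143 probes) had 16.1%, 18.9%, 18.9%, 11.9% and 14.7% in line 1 and 9.09% and 15.4% in Bmal1-/-, while line 2 had 11.9% and 9.79%. In this block Bmal1-/- at CT22 was the lowest of the 9 arrays, and its 2 arrays differed by more than the SD of 2.97 over line 1. The window just after it, from 130000001, was low, with a line 1 mean of 2.18%, while that from 131000001 had 11.9% but was called in 2 line 1 arrays only.

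The other 2 blocks of chromosome 4 stood alone. The block from 43000001 to 44000000 (150 probes) rose out of low neighbours, with line 1 means of 1.90% before it and 4.38% after it. It had 10.7%, 12%, 17.3%, 7.33% and 12% in line 1 and 8% and 11.3% in Bmal1-/-, while line 2 had 6.00% and 11.3%, so the 3 lines overlapped. The block from 57000001 to 58000000 (170 probes) was the weakest of all, with 12.4%, 8.82%, 5.29%, 10.6% and 11.8% in line 1 and a mean of 9.76% ± 2.84. At CT30 it was near the genome-wide 5%. Bmal1-/- had 10.0% and 11.2% there, and line 2 had 3.53% and 7.65%.

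**Figure D3:**
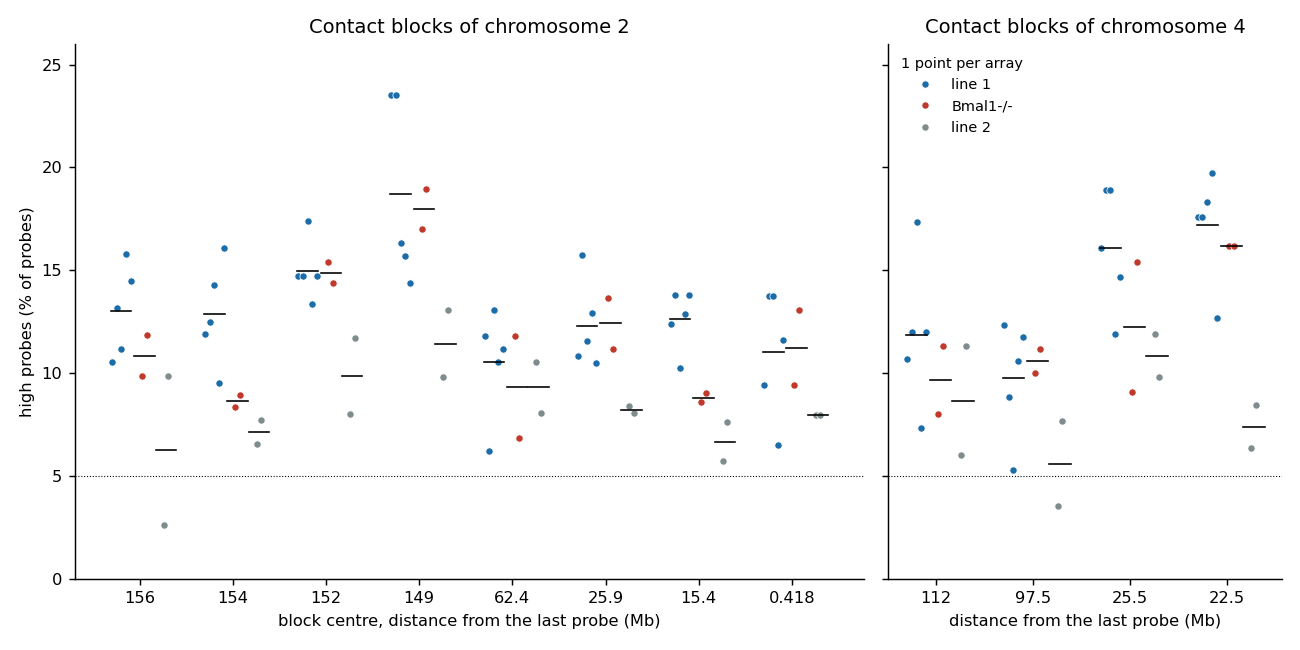
Share of high probes (percent, y axis) in the 8 contact blocks of chromosome 2 and the 4 of chromosome 4, ordered along the chromosome and labelled by the distance of their centre from the last probe (x axis, Mb), 1 point per array and a bar for the mean of each line. The blocks were chosen on line 1, so only the Bmal1-/- and line 2 points are independent of the choice; their means lie above the dotted line at 5% in all 12 blocks.

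The 4 arrays that did not choose the windows read the blocks differently. In Bmal1-/-, 6 of the 12 contact windows of chromosome 2 were called at CT22 and 7 at CT34, against 3 and 5 of the other 164 windows. On chromosome 4, 1 of 4 was called at CT22 and all 4 at CT34, against 1 and 4 of the other 146. Over both chromosomes this is 43.8% and 68.8% of contact windows, against 56.2% and 69.8% of all 242 contact windows off chromosome 7, so recurrence in Bmal1-/- was below or near the genome-wide share. Line 2 called 0 of 16 at CT22 and 2 of 16 at CT34, against 5.37% and 13.2% of all contact windows. The pooled shares were raised even so. In contact windows of both chromosomes line 2 had 7.18% and 9.15% high probes against 4.80% and 4.83% in their other windows, and Bmal1-/- had 11.5% and 12% against 4.06% and 3.93%.

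Within blocks the signal was spread over many 100 kb windows rather than held by 1. In the block from 32000001 on chromosome 2, 9 of 10 windows of 100 kb had a line 1 mean above 10%. The highest, from 32000001 to 32100000 (12 probes), had 36.7% ± 15.1 and ranged from 16.7% to 50.0% among line 1 arrays. In the block from 132000001 on chromosome 4, 9 of 10 also exceeded 10%, and the highest, from 132700001 to 132800000 (12 probes), had 25.0% ± 8.33. In the block from 43000001 on chromosome 4 the signal was more local, with 4 of 10 above 10% and 28.8% ± 14.4 in the window from 43500001 to 43600000 (16 probes). The block from 129000001 on chromosome 4 and that from 25000001 on chromosome 2 were close to it, with 5 of 10 each. With so few probes, 1 probe moves such a share by several percentage points, and at this scale 3 of 1754 windows on chromosome 2 and 1 of 1474 on chromosome 4 were called in at least 2 line 1 arrays. That is 0.171% and 0.0678%, against 0.334% of the 23644 such windows off chromosome 7.

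Over all probes, inside and outside the blocks, high probes clustered at short range. The share of high probes among direct neighbours of a high probe, a median of 4.96 kb away on chromosome 2, was 1.69 ± 0.19 times the chromosome's own share in line 1 (SD, n = 5). On chromosome 4 the ratio was 1.65 ± 0.35. It was still 1.56 ± 0.32 and 1.51 ± 0.13 at 50 probes, about 309 kb and 324 kb away, fell to 1.34 ± 0.11 and 1.28 ± 0.24 at 100 probes and was 1.10 ± 0.11 and 1.02 ± 0.17 at 500 probes, a little over 3 Mb away. Line 2 showed less of this, with 1.07 ± 0.21 and 1.14 ± 0.17 at the next probe. At 10 probes it had 1.27 ± 0.0090 on chromosome 2 and 1.11 ± 0.17 on chromosome 4. Bmal1-/- lay between at the next probe, with 1.51 ± 0.38 and 1.26 ± 0.0032 (SD, n = 2). Over the other chromosomes line 1 had 1.79 ± 0.13 at the next probe, within the range of the line 1 arrays on both chromosomes.

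Single probes seldom stayed high. Of the probes of chromosome 2, 74.9% were high on no array, and 107 were high on at least 6 of 9 arrays. On chromosome 4 these were 75.9% and 69. At least 6 arrays thus held 0.384% and 0.307% of the probes, against 0.50% on all other chromosomes but 7, where 72.9% were high on none. On each chromosome 1 probe was high on all 9 arrays, against 31 of 315285 probes on the other chromosomes. That of chromosome 2, from 32021383 to 32021441, lay in the block of highest share, and its neighbours were high on 3 and 0 arrays. Its log2 ratio was 3.27, 4.11, 4.34, 4.72 and 2.52 in line 1 in order of time and 4.05 and 4.76 in Bmal1-/-, while line 2 had 0.64 and 0.72. That of chromosome 4, from 69440686 to 69440744, had 3.95 to 4.53 in line 1 and 4.02 and 4.43 in Bmal1-/-, while line 2 had 0.73 and 2.60, and both its neighbours were high on 0 arrays and its window had a line 1 mean of 1.88%.

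The distal part of chromosome 4 carried more high probes than the rest of it in every array. Each chromosome was split into 4 stretches of equal length. The last of chromosome 4, its distal 38.0 Mb with 5119 probes from 117034699 to 155026420, had 5.65%, 6.52%, 6.37%, 5.18% and 5.78% in line 1 and 4.79% and 5.57% in Bmal1-/-, while line 2 had 7.27% and 7.13%. The other stretches together had 3.23% to 3.61% in line 1 and 3.74% and 3.69% in Bmal1-/-, while line 2 had 4.36% and 4.52%. The 2 sets of values do not overlap. The difference was 2.32 percentage points (SD 0.69, higher in 9 of 9 arrays, adjusted p = 0.020, exact sign-flip test, raw p = 0.0039, the smallest that 9 arrays can give). It was 2.48 ± 0.59 in line 1, 2.76 ± 0.21 in line 2 and 1.46 ± 0.59 in Bmal1-/-, and the mean log2 ratio gave the same direction in 9 of 9 arrays, with a mean difference of 0.17. Leaving out any 1 array kept the difference between 2.19 and 2.47 with adjusted p up to 0.039. With the last 20 Mb in place of the distal 38.0 Mb it was 1.49 (adjusted p = 0.0098, exact sign-flip test), so its size depended on where the stretch began.

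This distal rise was not a smooth climb to the end of the chromosome. In steps of 5 Mb from the last probe, line 1 had 3.88% ± 0.58 in the last step, 5.92% ± 1.15 in the next and 2.69% ± 0.37 between 10 and 15 Mb. It then had 7.33% ± 1.21 between 15 and 20 Mb, 9.55% ± 0.89 between 20 and 25 Mb, which holds the block from 132000001, and 7.53% ± 1.36 between 25 and 30 Mb, which holds the block from 129000001. Line 2 had its highest values nearer to the end, with 8.31% in the last step and 8.87% in the next. Line 1 was below the genome-wide share in the last step, with 2.92% to 4.37%, and near it in the next. Between 20 and 30 Mb from the end line 2 had 7.86% and 6.89%. The distal 38.0 Mb were thus raised in both lines, but not by the same steps. They also had the fewest probes per Mb of the 4 stretches, 135 against 147 to 158. In line 2, windows of chromosome 4 with fewer probes had higher shares (Pearson's r = -0.28), and the part of probe number in its distal values was not tested.

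**Figure D4:**
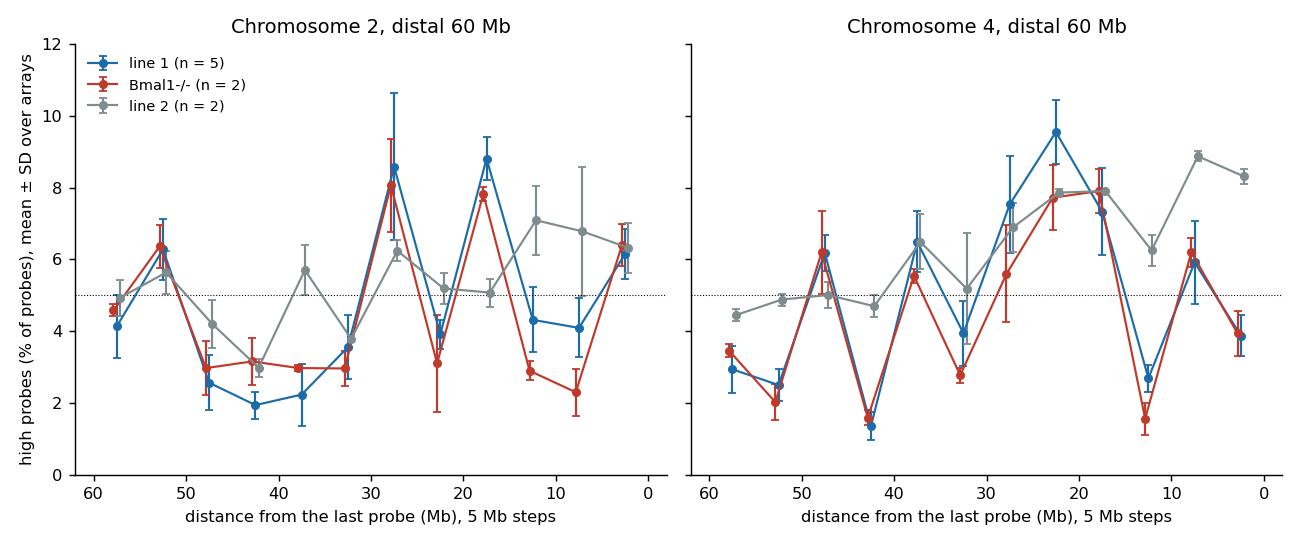
Share of high probes (percent, y axis) in steps of 5 Mb over the last 60 Mb of chromosomes 2 and 4, by distance from the last probe (x axis, Mb), as the mean ± SD over the arrays of each line. On chromosome 4 line 1 peaks at 9.55% between 20 and 25 Mb from the end, while line 2 peaks at 8.87% between 5 and 10 Mb.

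On chromosome 2 the split into 4 stretches gave a smaller difference that ran the other way in Bmal1-/-. Its distal 44.7 Mb had 4.52% to 4.92% in line 1 and 5.34% and 5.45% in line 2, against 4.02% to 4.52% and 4.69% and 4.81% in the rest. In Bmal1-/- it had 4.62% and 4.09% against 4.81% and 4.57%. The mean difference was 0.37 percentage points (SD 0.44, higher in 7 of 9 arrays, adjusted p = 0.047, exact sign-flip test). By the mean log2 ratio it was 0.03, higher in 8 of 9 arrays. By share it was 0.57 ± 0.21 in WT (SD, n = 7) and -0.33 ± 0.20 in Bmal1-/- (SD, n = 2). With the last 20 Mb in place of the distal 44.7 Mb the difference was 1.46 (adjusted p = 0.0098, exact sign-flip test), close to the 1.49 of chromosome 4 by that split. Both Bmal1-/- arrays were then higher distally too. They were so as well for the distal 44.7 Mb at the 90th percentile, where the mean difference was 1.31. The opposite direction in Bmal1-/- thus depended on the split and the threshold. Leaving out 1 array lost the call for the distal 44.7 Mb in 7 of 9 cases. The highest stretch of chromosome 2 in line 1 was the first, on the side of the centromere, with 5.37% ± 0.24 and 5 of its 12 contact windows. The stretches between had 3.51% ± 0.34 and 3.73% ± 0.31. Chromosome 4 had its lowest share in its first stretch, with 3.10% ± 0.24, where no contact window lay.

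At the other extreme, the 3 lowest windows of each chromosome held almost no high probes in line 1. On chromosome 2 these ran from 111000001, 42000001 and 89000001, with line 1 means of 0.348%, 0.368% and 0.469%. On chromosome 4 they ran from 37000001, 39000001 and 110000001, with 0.741%, 0.921% and 0.933%. Bmal1-/- was low in the same windows, with means of 0.781% to 2.22%. Line 2 was less depleted, with 2.73% to 6.67%, above line 1 in each of the 6 windows, which were chosen as the lowest of line 1.

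The profile along each chromosome recurred within the 2 lines of the shared mating scheme and less so with line 2. Across the 176 windows of chromosome 2, the shares of 2 line 1 arrays correlated with a median r of 0.81 over 10 pairs, line 1 with Bmal1-/- with 0.78 and line 1 with line 2 with 0.49. Across the 150 windows of chromosome 4 these were 0.78, 0.77 and 0.40. Windows are not replicates, and the arrays share their probes. The number of probes in a window was weakly related to its share, with Pearson's r between -0.054 and 0.040 on chromosome 2. On chromosome 4 it was 0.040 in line 1 and 0.11 in Bmal1-/-, but -0.28 in line 2, where windows with fewer probes had higher shares. Contact windows had medians of 147.5 and 146.5 probes, against 160 and 152 in the other windows.

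Circadian time in WT cells was tested first at CT34 against CT22, with 1 array of each line per time. On chromosomes 2 and 4, 0 of 326 windows passed (limma on window mean log2 ratios, adjusted p under 0.05 over 2536 windows, background 0% called). An unadjusted p under 0.05 was seen in 0, against a background of 0%. This fit had no term for line and did not pair the arrays, so the difference between the lines entered its spread. With line as a replicate block, 0 of 326 passed, and 12 had an unadjusted p under 0.05, 6 higher and 6 lower at CT34, against a background of 7.14%. The windows of smallest p did not pass. On chromosome 2 the mean of the window from 108000001 was 0.06 at CT22 against -0.03 at CT34 (difference -0.09, SE 0.06), and that from 96000001 had -0.04 and -0.10. On chromosome 4 the windows from 88000001 and 97000001 had 0.08 at CT22 and -0.01 at CT34 each. The adjusted p was 1.00 for all 4 (limma, n = 2 per time). In the block from 32000001 the mean log2 ratio went from 0.85 at CT22 to 0.75 at CT34 for line 1 and from 0.13 to 0.19 for line 2. The lines moved in opposite directions there, and in 7 of the 16 contact windows both moved the same way. On simulated data the fit without a term for line recovered only a minority of small planted differences, so its counts of 0 do not show that none exist. The fit with line as a block was not simulated, and its count of 0 does not show this either.

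The time course over 7 WT arrays asked for a 24 h rhythm, fitted as a cosine and a sine with line as a term. No window of either chromosome passed (0 of 326, background 0% called over 2536 windows, limma F test), and 16 had an unadjusted p under 0.05, or 4.91%, against a background of 6.43%. The smallest p on chromosome 4 belonged to the block from 57000001, with a fitted amplitude of 0.24 and an adjusted p of 0.67 (limma). Its mean log2 ratio in line 1 was 0.40 at CT22, 0.26 at CT26, 0.22 at CT30, 0.46 at CT34 and 0.48 at CT46, so that CT26 and CT30 were the low arrays. On chromosome 2 it was the window from 167000001, inside a block, with 0.68, 0.42, 0.44, 0.53 and 0.70 in the same order, an amplitude of 0.23 and an adjusted p of 0.67. With 5 times and 1 array at each, no time of line 1 has a replicate, although the 24 h fit treats CT22 and CT46 as the same phase. Line 2 is labelled CT22 and CT34 but its arrays are named with 24 and 36. With these times 0 of 326 windows passed as well (limma F test, background 0% called). An unadjusted p under 0.05 was seen in 9, or 2.76%, against a background of 3.82%.

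At the level of whole chromosomes, 6 comparisons were made by exact two-sided permutation tests, which could not pass at this number of arrays, since the smallest p is 0.333 for time and 0.067 for genotype. The share of chromosome 2 was 4.65% at WT CT34 and 4.55% at WT CT22 (SD 0.44 and 0.41, n = 2 each, exact permutation p = 0.667), and that of chromosome 4 was 4.44% and 4.47% (exact permutation p = 1.00). The share of chromosome 2 was higher at CT34 in both WT lines, by 0.079 percentage points in line 1 and by 0.12 in line 2, and lower in Bmal1-/- (difference -0.31). The distal 38.0 Mb of chromosome 4 had 6.15% ± 1.38 at CT34 and 6.46% ± 1.15 at CT22 (SD, n = 2). It was lower at CT34 in both WT lines, by 0.47 percentage points in line 1 and by 0.14 in line 2, and higher by 0.78 in Bmal1-/-. The last is a difference between 2 single arrays.

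Bmal1-/- cells were compared with WT cells at CT22 and CT34, with circadian time as a term. Of the 326 windows 0 passed (limma, 2 arrays against 4, background 0% called), and 70 had an unadjusted p under 0.05, or 21.5%, against a background of 24.8%. All 70 were higher in Bmal1-/-. This direction depended on the scaling. After quantile normalization of the arrays 31 windows had an unadjusted p under 0.05, 3 higher and 28 lower (background 6.23%), and with window medians in place of means these were 5 and 35 (background 10.6%). Window means were higher in Bmal1-/- over the whole genome, with a median difference of 0.14 over all 2536 windows and 0.11 over these 326. The SD over probes was 1.10 in Bmal1-/- at CT34 and 0.92 at CT22, against 0.82 to 0.93 in line 1, and its part in the direction was not tested.

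A comparison with the 5 line 1 arrays alone, without a term for time, left out line 2 and its narrower range. It called 21 of 326 windows, 14 on chromosome 2 and 7 on chromosome 4, all higher in Bmal1-/-, or 6.44%, against a background of 9.46%. The count was 0 without line 1 at CT30 or without Bmal1-/- at CT34, 1 without line 1 at CT22 or at CT26, 6 and 8 without line 1 at CT46 or CT34 and 85 without Bmal1-/- at CT22, against a background of 35.8% in that fit. Without either Bmal1-/- array the other is a lone sample, which the fit assumes to vary like line 1. Of the contact windows, 3 were among the 21, on chromosome 2 from 29000001, 155000001 and 156000001. The window from 155000001 had mean log2 ratios of 0.83 and 0.90 in Bmal1-/- against 0.56 to 0.67 in line 1, a difference of 0.27 with SE 0.045 (adjusted p = 0.016, limma). After quantile normalization this difference was 0.049 with an adjusted p of 0.56, and none of the 21 passed.

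In the same comparison with line 1 alone, 3 of 326 windows were called after quantile normalization, or 0.920%, against a background of 0.986%, so the count is no result about chromosomes 2 and 4. They ran from 139000001, 141000001 and 151000001, all in the distal 38.0 Mb of chromosome 4 and all lower in Bmal1-/- (limma). On that scale the window from 139000001 had means of 0.15 in Bmal1-/- and 0.38 in line 1, a difference of -0.22 (adjusted p = 0.022), and that from 151000001 had 0.04 and 0.26 (adjusted p = 0.024). The window from 141000001 had 0.04 and 0.22 (adjusted p = 0.050). Of the 37 windows in that stretch, 34 were lower in Bmal1-/-, with a median difference of -0.11. Over both chromosomes 191 of 326 were lower, with a median of -0.014. Of all 2536 windows 51.7% were higher, with a median of 0.0029. In the first stretch of chromosome 4, 10 of 38 were lower, with a median difference of 0.031.

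The lower values were mainly those of the array at CT22. Before any quantile normalization, Bmal1-/- at CT22 was lower than line 1 at CT22 in 30 of those 37 windows, with a median difference of -0.085. Over both chromosomes it was lower in 110 of 326, with a median of 0.036. At CT34 Bmal1-/- was lower in 8 of 37, with a median of 0.097, near the 54 of 326 and 0.095 over both chromosomes. In the window from 139000001 the centred log2 ratio was 0.09 in Bmal1-/- at CT22 and 0.35 at CT34, against 0.30 to 0.39 in line 1. In that from 151000001 it was -0.04 and 0.16, against 0.18 to 0.27. Without Bmal1-/- at CT22 the quantile-normalized count fell from 3 to 0, and without Bmal1-/- at CT34 it was 4, each from 1 Bmal1-/- array assumed to vary like line 1. The mean log2 ratio of the distal 38.0 Mb exceeded that of the rest by 0.070 in Bmal1-/- at CT22, by 0.24 at CT34 and by 0.20 to 0.26 in line 1. The share of high probes in the stretch pointed the same way, with 4.79% at CT22, the lowest of the 9 arrays. Over both times its difference from WT, line 2 included, was -1.13 percentage points (5.18% ± 0.55 against 6.30% ± 1.05, n = 2 and 4, exact permutation p = 0.20, smallest possible 0.067). With line 1 as the only WT line it was -0.23. Bmal1-/- minus line 1 was -0.86 at CT22 and 0.39 at CT34, each between 2 single arrays.

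**Figure D5:**
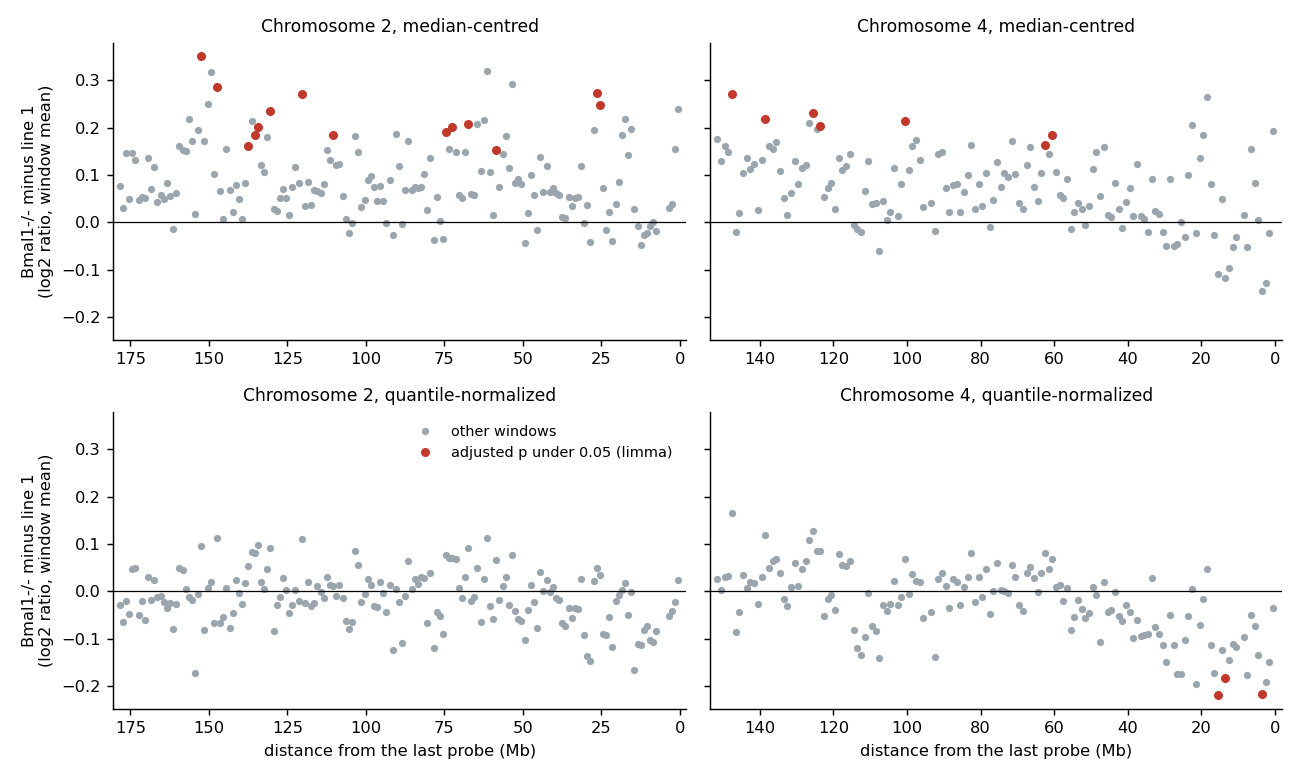
Difference of the window mean log2 ratio, Bmal1-/- (2 arrays) minus line 1 (5 arrays), for each 1 Mb window (y axis) by distance from the last probe (x axis, Mb), median-centred above and quantile-normalized below, with windows of adjusted p under 0.05 (limma) in red. Median-centred, most windows lie above 0, with 21 calls, all higher; after quantile normalization the only 3 calls are lower windows near the end of chromosome 4.

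Whether the genotype difference depends on time was tested by an interaction term over 6 arrays. Of the 326 windows 0 passed (limma, background 0% called), and 0 had an unadjusted p under 0.05, against a background of 0.434%. On simulated data this fit recovered none of the planted differences, so its counts of 0 say nothing about absence. With a term for line 2 as the replicate block, 66 windows passed, 32 on chromosome 2 and 34 on chromosome 4, against a background of 26.3%. Of these, 63 had a larger Bmal1-/- minus WT difference at CT34. That fit has 1 residual degree of freedom, and after quantile normalization it called 0 of 326, with 19 windows at an unadjusted p under 0.05, 9 higher and 10 lower, against a background of 8.24%. In the window from 30000001 to 31000000, part of a block, the interaction was 0.51 in the fit without the block, the largest among contact windows, with an adjusted p of 0.99. Each Bmal1-/- time is 1 array, and its array at CT34 had the highest threshold for high probes of all 9, so time and array cannot be told apart in Bmal1-/-.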

How the data were processed

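Per the labels' protocols, HindIII and then Csp6I cut the DNA, with a ligation after each, and inverse PCR used primers in Dbp. Cy5 marked this 4C DNA and Cy3 the genomic DNA, and each sample was hybridized to 1 NimbleGen array. The authors deposited 1 log2 ratio per probe. Per the file headers the ratios came from NimbleScan and were shifted by a Tukey biweight mean; the base of the logarithm follows that program's convention. The genome build is not given among the sources used here, and probe positions did not follow HindIII sites of a promoter table for GRCm38. No sequence was therefore printed.

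From these values were computed the 95th percentile per array over probes off chromosome 7, shares of high probes, window calls (binomial test, Benjamini-Hochberg per array), exact sign-flip and permutation tests, and limma 3.58.1 fits on the mean log2 ratios of 2536 windows, each array centred on its median (R 4.3.3, Python 3.11.15, numpy 2.4.6, pandas 2.3.3, scipy 1.17.1). The fits and callers were tested on simulated data. The number of arrays limits the precision, and the intervals cover counting error only.

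In the time and genotype comparisons same-numbered WT samples come from the same line, so the number pairs them. The line 1 minus line 2 differences of windows at CT22 and CT34 correlated with r = 0.95 over 2536 windows, chromosome 7 included. Over the 326 windows of chromosomes 2 and 4 it was r = 0.84. The part of the narrower range of line 2 in this was not tested. The rule for named regions took, per chromosome, up to 8 blocks of highest line 1 share with their highest 100 kb window of at least 5 probes, the 3 lowest windows, the 2 windows of smallest p per limma comparison and up to 5 probes high on all arrays. The windows between and beside blocks, and those that limma called in added fits, were named after their values were seen. The chromosomes, blocks and rules were chosen with earlier results of these data known.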

Additional observations from a re-analysis of the deposited data

Results flagged for a closer look

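In 6 results 2 groups went opposite ways in each of their samples. None of these differences between groups was tested.

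The differences between chromosomes turned with the WT line. Chromosome 4 minus chromosome 2 was -0.33 percentage points of high probes in line 1, lower in 5 of 5 arrays, and 0.17 in line 2, higher in 2 of 2. Chromosome 2 minus the other chromosomes was -0.73 in line 1 and 0.11 in line 2. Chromosome 4 minus the other chromosomes was -1.07 in line 1 and 0.29 in line 2. Line 2 also had the narrower range of ratios, with SDs over probes of 0.39 and 0.41, and its part in these differences was not tested.

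The other 3 concern Bmal1-/-. The distal 44.7 Mb of chromosome 2 minus its rest was 0.57 in WT, higher in 7 of 7 arrays, and -0.33 in Bmal1-/-, lower in 2 of 2. With the last 20 Mb in its place, or at the 90th percentile, both Bmal1-/- arrays were higher distally as well. The share of chromosome 2 at CT34 minus CT22 was -0.31 in Bmal1-/- and 0.10 as the mean of both WT lines. For the distal 38.0 Mb of chromosome 4 the same difference was 0.78 in Bmal1-/- and -0.30 as the mean of both WT lines. Each Bmal1-/- time difference is between 2 single arrays.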

How the results depend on the processing

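Of 224 alternatives, 162 were counted as the same as the main setting. For the sign-flip tests this meant the same direction and side of the threshold. For counts of windows it meant a similar count, mostly 0 against 0 in the limma fits. For line 1 shares it meant a move smaller than their SD, and for condition differences the same direction only. Where alternatives were not the same, the cause was not tested. Without 1 array the distal excess on chromosome 4 stayed between 2.19 and 2.47 percentage points; that on chromosome 2 was 0.304 to 0.476, chromosome 2 minus the others -0.552 to -0.418, chromosome 4 minus the others -0.889 to -0.684 and chromosome 4 minus chromosome 2 -0.327 to -0.207. These lost their calls in 7, 4, 4 and 6 of 9 cases. With 1 mean for each of 3 lines, no call was possible: chromosome 4 minus chromosome 2 was -0.241, chromosome 2 minus the others -0.343, chromosome 4 minus the others -0.595, and the distal excess 2.23 on chromosome 4 and 0.285 on chromosome 2. By mean log2 ratio the first 3 were 0.0015, -0.0066 and -0.0049. At the 90th percentile chromosome 4 minus chromosome 2 was -0.388, and at the 99th the distal excess of chromosome 2 was 0.0328.

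By construction, the threshold moved the line 1 shares of chromosomes 2 and 4, to 9.01% and 8.85% at the 90th percentile and 0.902% and 0.811% at the 99th. Contact windows on chromosomes 2 and 4, of 176 and 150 tested, numbered 20 and 10 at the 90th percentile and 0 and 0 at the 99th. Of all 2399 windows off chromosome 7 these settings gave 320 and 16. When called in all 5 line 1 arrays they numbered 6 and 2 (background 5.09%), and when called in at least 1, 28 and 19 (background 19.4%). Without 1 array they numbered 10 to 12 and 3 to 4, against 203 to 213 of the 2399 windows.

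Some uncalled condition differences reversed. In the main setting Bmal1-/- minus WT was 0.0090 percentage points on chromosome 2, -0.409 on chromosome 4 and -1.13 in its distal stretch. CT34 minus CT22 in WT was 0.101, -0.0267 and -0.303 in the same order. The following values had the other sign. Bmal1-/- minus WT was -0.0871 on chromosome 2 at the 99th percentile, and on chromosome 4 0.127 by mean log2 ratio and 0.203 with line 1 as the only WT line; for the distal stretch it was 0.142 by mean log2 ratio. CT34 minus CT22 was 0.185 on chromosome 4 at the 90th percentile and 0.0071 in its distal stretch by mean log2 ratio. Without 1 array, CT34 minus CT22 ranged from -0.210 to 0.411 on chromosome 2, from -0.701 to 0.648 on chromosome 4 and from -1.28 to 0.674 in the distal stretch; Bmal1-/- minus WT ranged from -0.146 to 0.163, from -0.639 to -0.189 and from -1.52 to -0.737.

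For Bmal1-/- minus WT, limma with trend and robust called 31 windows (background 13.4%), the 5 line 1 arrays 21, and these with quantile normalization 3. The replicate block gave 66 windows for the interaction and changed no other call. Comparisons with line 1 alone under quantile normalization or without single arrays, the quantile-normalized block and the chromosome-level shares without 1 array or line 2 were chosen after seeing the data.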
